A study of Mus musculus with 9 samples.

Results

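The mouse mitochondrial genome was represented by 37 genes, taken as every gene whose symbol starts with mt-, of 55335 gene identifiers counted. All 37 lay on the mitochondrial chromosome (chrM) of GRCm38. They were 13 protein genes, 2 rRNAs and 22 tRNAs, with 28 on the plus strand of the reference and 9 on the minus strand. The cells were D2A1-d, a mouse breast carcinoma line that serves as a dormancy model for metastasis, that is, for spread tumour cells that stay alive but do not form growing lesions. They were wild type and untreated per the labels apart from transduction with a short hairpin RNA. The groups were shMed4 #1 and shMed4 #4, which are hairpins against Med4, and the non-targeting control hairpin NTC, with 3 libraries each. The Med4 protein belongs to Mediator, which carries signals from transcription factors to RNA polymerase II. The labels number the libraries as biological replicates and do not say whether cells were transduced separately, and each p-value is therefore set against the spread among these 9 libraries, which may be technical.

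Mitochondrial DNA is copied into RNA by its own polymerase, Polrmt, which starts on either strand and makes long transcripts that hold many genes. tRNAs lie between most rRNA and protein genes, and their excision releases the mature RNAs. The plus strand of the reference carries both rRNAs and most protein genes, whereas the minus strand carries mt-Nd6 and a minority of the tRNAs. The protein genes encode core subunits of respiratory complexes I, III, IV and V, and all other subunits, as well as the factors that copy, process and translate mitochondrial RNA, come from nuclear genes.

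Sequences are shown here for the genes whose counts later carry a result. The first is mt-Te (chrM:14071-14139 in GRCm38, minus strand), the tRNA for glutamate, because it changed most, and the next is mt-Tq (chrM:3772-3842, minus strand), the tRNA for glutamine, the member with a call below NTC. Capitals in mt-Tq mark the 3 bases that it shares with mt-Ti on the other strand. Sequences are from GENCODE M21 and run 5′ to 3′.
mt-Te: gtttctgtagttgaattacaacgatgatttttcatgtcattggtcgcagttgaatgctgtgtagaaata
mt-Tq: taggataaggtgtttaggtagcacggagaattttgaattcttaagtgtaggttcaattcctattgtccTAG

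mt-Nd5 and mt-Nd6 face each other on opposite strands and share their last 14 bases (chrM:13552-13565), shown in capitals in the last 40 bases of each gene, at chrM:13526-13565 on the plus strand and chrM:13552-13591 on the minus strand. They are shown because reads over these bases lie in both genes, and mt-Nd6 is the minus-strand protein gene of the strand comparison.
mt-Nd5: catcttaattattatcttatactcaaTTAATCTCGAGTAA
mt-Nd6: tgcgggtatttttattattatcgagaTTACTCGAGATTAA

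mt-Nd3 and its nuclear copy Gm28438 are shown because the placing of reads of several mitochondrial genes between such copies is uncertain. Their first 33 bases, at chrM:9459-9491 on the plus strand and chr1:24613087-24613119 on the minus strand, differ by T3C, counted from the start of the gene, with the difference in capitals.
mt-Nd3: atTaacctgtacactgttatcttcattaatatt
Gm28438: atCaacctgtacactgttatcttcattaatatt

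Reads assigned to genes numbered 7572114 to 8582235 per library, and 346464 to 512003 of these were mitochondrial. Med4 held 40, 35 and 38 reads in the shMed4 #1 libraries and 66, 60 and 50 in the shMed4 #4 libraries, against 236, 216 and 204 in the NTC libraries. Its log2 fold change was -2.59 with shMed4 #1 and -1.92 with shMed4 #4. Of markers of other cell types, Cd3e, Emcn and Myh6 had 0 reads over all 9 libraries and Ptprc had 12. Of the 7 mammary epithelial markers, Cdh1 and Elf5 had 0 reads and Epcam 1, and the list summed to 93.4 to 111 CPM with shMed4 #1 and 175 to 201 CPM with shMed4 #4, against 23.6 to 25.0 CPM in NTC, mostly from Krt18. Leukocyte markers summed to 76.5 to 85.5 CPM with shMed4 #1 and 77.7 to 85.9 CPM with shMed4 #4, against 114 to 138 CPM in NTC, mostly from Cd14, which fell, whereas Cd74 rose with each hairpin (log2 2.23 with shMed4 #1 and 2.73 with shMed4 #4). Fibroblast markers summed to 124 to 141 CPM with shMed4 #1 and 118 to 135 CPM with shMed4 #4, against 141 to 152 CPM in NTC. Of its 3 tested genes, Col1a1 and Col1a2 rose and Pdgfra fell with each hairpin. Fat and muscle markers summed to 2.66 to 5.19 CPM with shMed4 #1 and 5.72 to 7.56 CPM with shMed4 #4, against 2.57 to 3.60 CPM in NTC, mostly from Acta1, which rose with shMed4 #4 (log2 1.14). Endothelial markers summed to 2.73 to 3.92 CPM with shMed4 #1 and 2.07 to 3.10 CPM with shMed4 #4, against 1.29 to 1.86 CPM in NTC, and the tested gene, Cdh5, rose with each hairpin. The part of these lists in the results was not tested.

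Of the 37 genes, 24 had at least 1 read and 22 had enough reads to be tested. The 13 genes without a read were all tRNAs. The 2 genes with reads that were too few to test were mt-Atp8, with 10 reads over the shMed4 #1 libraries and 8 over the shMed4 #4 libraries, against 5 over the NTC libraries, and the tRNA gene mt-Tn, with 1 read in all. The 9 genes with at least 1000 reads in every library were mt-Rnr1, mt-Rnr2, mt-Nd1, mt-Nd2, mt-Co1, mt-Nd4, mt-Nd5, mt-Nd6 and mt-Cytb, and they held 344183 to 508641 reads per library.

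Mitochondrial genes took a larger share of the reads in every Med4 hairpin library than in any NTC library. The share was 6.12, 5.64 and 5.51% in the shMed4 #1 libraries and 6.04, 5.81 and 5.82% in the shMed4 #4 libraries, against 4.43, 4.58 and 4.54% in the NTC libraries. All 6 hairpin values lay above the highest NTC value. The mean was 5.76 ± 0.32% with shMed4 #1 and 5.89 ± 0.13% with shMed4 #4, against 4.52 ± 0.08% in NTC (SD, n = 3 each), or 1.27 and 1.30 times NTC. An exact two-sided permutation test gave p = 0.1 for each hairpin, the smallest that 3 against 3 libraries allow, and p = 0.0238 for all 6 hairpin libraries against NTC (0.0952 adjusted over 4 comparisons). Between shMed4 #4 and shMed4 #1 the difference was 0.13 percentage points (exact permutation p = 0.6). Reads are shares of a library, so more mitochondrial RNA and less RNA of other kinds per cell cannot be told apart, nor can a change in which cells were present.

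The genes stood at very different levels, given here as CPM per kb of gene (CPM are gene reads scaled to a fixed library total, with TMM factors between libraries). mt-Co1, which encodes the catalytic subunit of cytochrome c oxidase, was highest in NTC at 8858 ± 138, followed by mt-Nd1 at 7167 ± 213, mt-Cytb at 6803 ± 239 and mt-Nd2 at 4650 ± 60 (SD, n = 3). mt-Nd1 and mt-Cytb differed by less than the sum of their SDs. mt-Nd6 at 2646 ± 62 and mt-Nd4 at 2370 ± 123 came next, then mt-Nd5 at 2069 ± 86, mt-Rnr2 at 1215 ± 67 and mt-Rnr1 at 399 ± 18. The rRNAs of mitochondrial ribosomes thus stood below all 7 of those protein genes. With both hairpins mt-Nd1 was the top gene, at 9436 ± 569 with shMed4 #1 and 10660.3 ± 747 with shMed4 #4, beside mt-Co1 at 9421 ± 209 with shMed4 #1 and 9551 ± 276 with shMed4 #4, and the difference was within the SDs with shMed4 #1. The order depends on the length used: per 1000 windows of 100 bases that no annotated nuclear transcript shares, mt-Co1 was highest in every group, at 14556 CPM with shMed4 #1 and 14757 CPM with shMed4 #4, against 13685 CPM in NTC. On that scale mt-Nd4 stood at 9266 CPM with shMed4 #1 and 9317 CPM with shMed4 #4, against 6505 CPM in NTC, above mt-Nd2 at 5309.9 CPM in NTC.

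**Figure D1:**
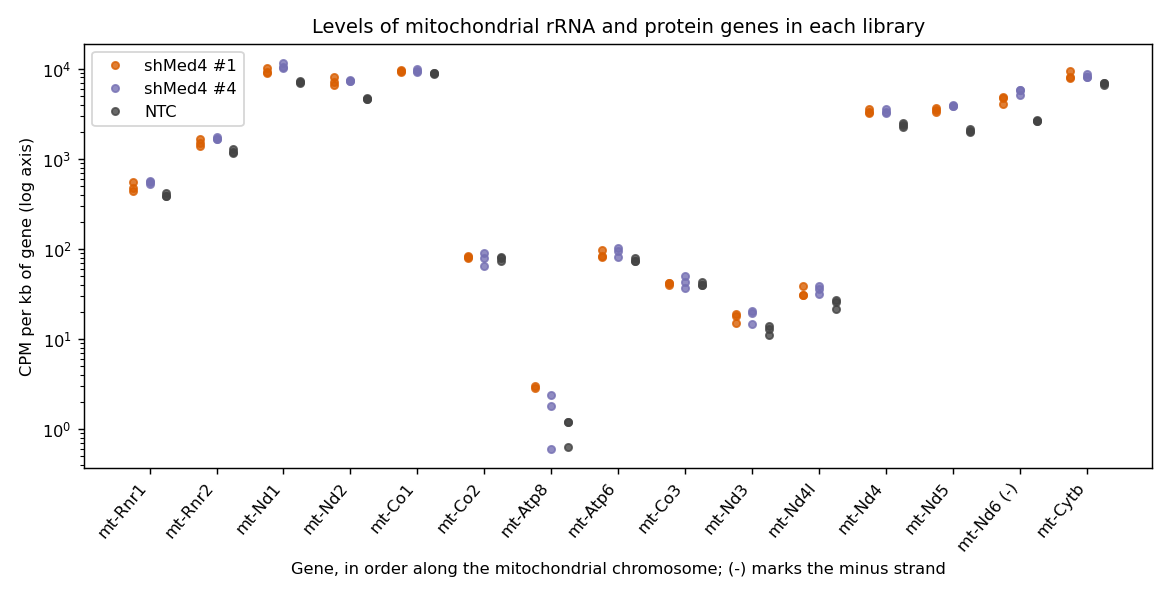
Level of each rRNA and protein gene in each library, in CPM per kb of gene on a log axis, in genome order, with 3 points for each of shMed4 #1, shMed4 #4 and NTC. In NTC mt-Co1 averaged 8858 and mt-Nd3 averaged 12.7, and 1 shMed4 #1 library with 0 reads of mt-Atp8 is not drawn.

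A run of genes from mt-Co2 to mt-Nd4l stood far below its neighbours. In NTC mt-Co2 averaged 78.6 ± 4.1 CPM per kb, mt-Atp6 75.3 ± 3.8, mt-Co3 41.0 ± 2.1, mt-Nd4l 24.9 ± 3.2 and mt-Nd3 12.7 ± 1.4 (SD, n = 3), and mt-Co2 and mt-Atp6 differed by less than their SDs. By contrast mt-Co1 on one side averaged 8858 and mt-Nd4 on the other 2370. Nearly all of the sequence of these 5 genes recurs in annotated nuclear transcripts: 97.6 to 99.9% of their 100-base windows were found there letter for letter. The share was 60.8% for mt-Nd4, 30.8% for mt-Co1, 3.19% for mt-Nd2 and 0 for mt-Nd1, mt-Nd5, mt-Nd6, mt-Cytb and both rRNAs. The copies of the run lie on the minus strand of chromosome 1 (chr1:24611535-24616197) as pseudogenes in mitochondrial gene order, from Gm29216 for the end of mt-Co1 to Gm28439 for the first 876 bases of mt-Nd4. Gm28661, Gm10925, Gm28437, Gm10222 and Gm28439 matched mt-Co2, mt-Atp6, mt-Co3, mt-Nd4l and mt-Nd4 with 100% identity, and Gm28438 matched mt-Nd3 over 345 bases with 99.71%.

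Alignments to several places were not assigned to genes. They made up 10.5 to 11.1% of the records with shMed4 #1 and 10.5 to 10.8% with shMed4 #4, against 11.2 to 11.6% in NTC. How the reads of these 5 genes divide between the mitochondrial and the nuclear copy is therefore uncertain. Gm28438 was counted at 162, 106 and 129 reads with shMed4 #1 and 96, 115 and 124 with shMed4 #4, against 237, 232 and 116 in NTC, where mt-Nd3 itself had 39, 30 and 37. The copy fell by 0.73 on the log2 scale over both hairpins (edgeR adjusted p = 5.04e-05), although NTC library 3 lay within the hairpin range, while mt-Nd3 rose by 0.48 (adjusted p = 0.0169). The other copies did not all fall. Raw reads of Gm10925 were 870 to 943 with shMed4 #1 and 797 to 949 with shMed4 #4, against 689 to 751 in NTC. Those of Gm28437 overlapped, at 419 to 484 with shMed4 #1 and 381 to 494 with shMed4 #4, against 353 to 437 in NTC. Gm28438, Gm10222 and Gm29216 were named after their values were seen. mt-Atp8 was also low, at 1.02 ± 0.33 CPM per kb in NTC, and none of its windows of 50 or 100 bases was found in an annotated nuclear transcript. Nuclear sequence outside annotated transcripts was not searched.

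**Figure D2:**
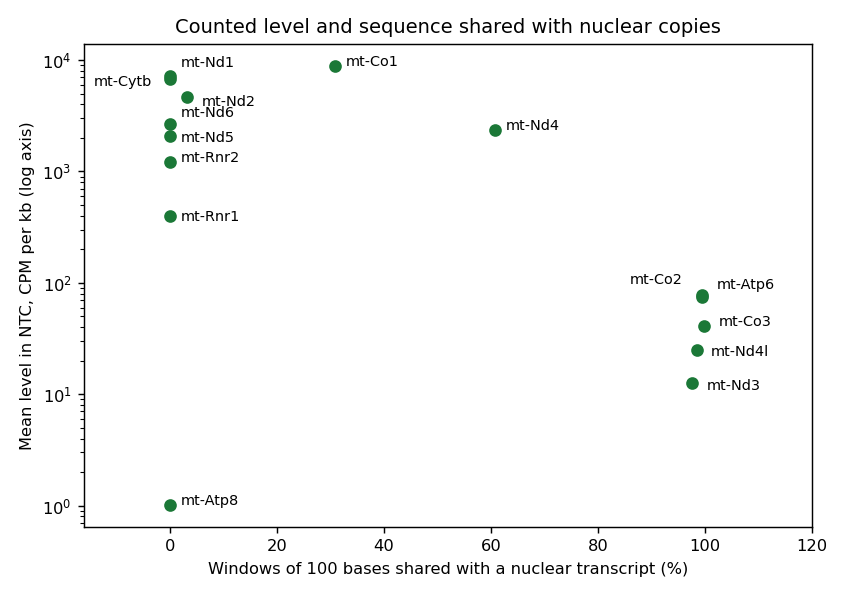
Mean NTC level of each rRNA and protein gene, in CPM per kb on a log axis, against the percentage of its 100-base windows found in an annotated nuclear transcript. The 5 genes at 97.6 to 99.9% stood between 12.7 and 78.6, the other genes with shared windows at 30.8 and 60.8% were mt-Co1 and mt-Nd4, and mt-Atp8 was low with 0% shared.

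More mitochondrial genes were higher than lower with each hairpin. With shMed4 #1, 15 of the 22 tested genes rose and 1 fell, where 41.6% of all 14335 tested genes passed (21.8% higher and 19.8% lower). With shMed4 #4, 16 rose and 0 fell, where 55.1% of all genes passed (27.8% higher and 27.3% lower). For the average of both hairpins, 18 rose and 1 fell, where 53.3% of all genes passed (26.8% higher and 26.5% lower), and the median log2 fold change was 0.45, against -0.01 over all genes. The test was edgeR's quasi-likelihood test with a Benjamini-Hochberg adjusted p of 0.05 over all tested genes. With each hairpin 14 genes rose, where 17.4% of all genes did, and 0 fell, where 15.8% did, and the same NTC libraries served both comparisons. The CPM of 16 genes lay above all NTC libraries in all 6 hairpin libraries, where 19.5% of all genes did, and 0 lay below, where 18.3% did. With DESeq2 in place of edgeR, 4 of the calls with a single hairpin did not pass: mt-Nd4l (adjusted p = 0.0840) and mt-Atp6 (adjusted p = 0.0802) with shMed4 #1, and mt-Nd3 (adjusted p = 0.0684) and mt-Ts1 (adjusted p = 0.159) with shMed4 #4. With the trend on GC content and length removed, mt-Tw (log2 0.90) and mt-Nd3 (log2 0.59) passed with shMed4 #1 as well (edgeR adjusted p = 0.0286 and 0.0117).

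All 7 complex I subunits rose in the average of both hairpins, where 26.8% of all genes did, with a median log2 fold change of 0.51. Complex I, the NADH dehydrogenase, is the entry point of electrons from NADH, and its mitochondrially encoded subunits form the core of its membrane arm. mt-Nd6 had 2491, 2445 and 2099 CPM with shMed4 #1 and 2651, 3025 and 2979 CPM with shMed4 #4, against 1409.8, 1360.2 and 1350.2 CPM in NTC. mt-Nd5 had 6755, 6309 and 6029 CPM with shMed4 #1 and 7091, 7205 and 7004 CPM with shMed4 #4, against 3635, 3944 and 3741 CPM in NTC. For both genes every hairpin library lay far above every NTC library, and the shMed4 #4 values lay above those of shMed4 #1. mt-Nd6 rose by 0.77 ± 0.06 on the log2 scale with shMed4 #1 (edgeR adjusted p = 4.57e-14) and by 1.07 ± 0.06 with shMed4 #4 (adjusted p = 1.51e-18). mt-Nd5 rose by 0.75 ± 0.05 with shMed4 #1 (edgeR adjusted p = 3.52e-15) and by 0.91 ± 0.05 with shMed4 #4 (adjusted p = 6.06e-18), where the error is the standard error.

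The next subunits changed less. mt-Nd2 had 8363, 7309 and 6916 CPM with shMed4 #1 and 7775, 7591 and 7626 CPM with shMed4 #4, against 4796, 4898 and 4787 CPM in NTC. mt-Nd4 had 4957, 4572 and 4426 CPM with shMed4 #1 and 4981, 4567 and 4484 CPM with shMed4 #4, against 3087, 3424 and 3286 CPM in NTC. mt-Nd1 had 9649.7, 8815 and 8626 CPM with shMed4 #1 and 11014, 9667 and 9924 CPM with shMed4 #4, against 6832, 6669.8 and 7074 CPM in NTC. None of these 3 genes overlapped between hairpin and NTC libraries, and each passed with both hairpins (edgeR adjusted p at most 1.44e-07). With shMed4 #1 the log2 fold changes were 0.64 for mt-Nd2, 0.51 for mt-Nd4 and 0.40 for mt-Nd1, and with shMed4 #4 they were 0.67, 0.52 and 0.57.

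The shortest subunits, mt-Nd3 and mt-Nd4l, held few reads and nearly all of their sequence is also nuclear. mt-Nd3 had 6.57, 6.28 and 5.31 CPM with shMed4 #1 and 7.18, 5.08 and 6.73 CPM with shMed4 #4, against 4.84, 3.87 and 4.53 CPM in NTC. mt-Nd4l had 11.5, 9.05 and 9.12 CPM with shMed4 #1 and 11.4, 10.8 and 9.42 CPM with shMed4 #4, against 6.33, 8.12 and 7.71 CPM in NTC. Neither gene overlapped between hairpin and NTC libraries. mt-Nd4l passed with both hairpins (log2 0.42 with shMed4 #1 and 0.51 with shMed4 #4), and mt-Nd3 passed with shMed4 #4 (0.52, edgeR adjusted p = 0.0233) and not with shMed4 #1 (0.45, adjusted p = 0.0634). Without NTC replicate 2 the averaged mt-Nd3 value was 0.40 and did not pass (adjusted p = 0.0937), and its shMed4 #4 value was 0.43 to 0.48 and did not pass without NTC replicate 2, shMed4 #4 replicate 1 or shMed4 #4 replicate 3 (adjusted p 0.0685 to 0.104). With DESeq2 the averaged mt-Nd3 value was 0.49 and did not pass (adjusted p = 0.0549). Without NTC replicate 1 or shMed4 #1 replicate 1 the shMed4 #1 value of mt-Nd4l was 0.30 to 0.32 and did not pass (adjusted p 0.147 to 0.167).

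mt-Cytb, which encodes the cytochrome b of complex III, rose with both hairpins. It had 10726, 9346 and 9043 CPM with shMed4 #1 and 9970.3, 9354 and 9273 CPM with shMed4 #4, against 7466, 7931 and 7949 CPM in NTC. Hairpin and NTC libraries did not overlap. The log2 fold change was 0.32 ± 0.05 with shMed4 #1 (edgeR adjusted p = 1.1e-05) and 0.29 ± 0.06 with shMed4 #4 (adjusted p = 2.29e-05).

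For complex IV, the cytochrome c oxidase, none of the 3 subunits passed with either hairpin. mt-Co1 had 14922, 14435 and 14311 CPM with shMed4 #1 and 15226, 14651 and 14393 CPM with shMed4 #4, against 13453, 13873 and 13729 CPM in NTC. Every hairpin library lay above every NTC library, by a narrow margin, with log2 fold changes of 0.09 ± 0.05 for shMed4 #1 (edgeR adjusted p = 0.142) and 0.11 ± 0.05 for shMed4 #4 (adjusted p = 0.055). Its averaged value of 0.10 passed at adjusted p = 0.0461 and did not pass without any of NTC replicates 1, 2 and 3, shMed4 #1 replicate 2 or shMed4 #4 replicate 1 (0.09 to 0.11, adjusted p 0.0514 to 0.134). The shMed4 #4 value lay close to the threshold: it passed in 13 of 22 alternatives, DESeq2 (0.11, adjusted p = 0.00849) and limma-voom (0.11, adjusted p = 0.0090) among them, and reached 0.24 (edgeR adjusted p = 1.66e-05) with the trend on GC content and length removed, and the shMed4 #1 value passed in 3.

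mt-Co2 and mt-Co3 did not separate the groups. mt-Co2 had 57.8, 54.4 and 55.8 CPM with shMed4 #1 and 61.6, 53.8 and 44.3 CPM with shMed4 #4, against 50.6, 54.6 and 56.0 CPM in NTC. mt-Co3 had 31.0, 33.2 and 32.9 CPM with shMed4 #1 and 39.1, 33.8 and 29.2 CPM with shMed4 #4, against 34.0, 31.2 and 31.2 CPM in NTC. For both genes the hairpin libraries overlapped those of NTC, and the averaged log2 fold changes were 0.02 ± 0.07 and 0.05 ± 0.08. More than 99% of the windows of each are shared with nuclear transcripts, so these values rest on few and uncertainly placed reads. With the trend on GC content and length removed, both passed as higher with shMed4 #4 (mt-Co2 at 0.21, edgeR adjusted p = 0.0299, and mt-Co3 at 0.29, adjusted p = 0.0061).

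Of the subunits of complex V, the ATP synthase, mt-Atp6 was tested. It had 66.2, 57.1 and 54.8 CPM with shMed4 #1 and 70.2, 64.7 and 55.4 CPM with shMed4 #4, against 54.2, 49.996 and 49.6 CPM in NTC. The lowest hairpin library stood just above the highest NTC library. mt-Atp6 rose by 0.21 ± 0.08 with shMed4 #1 (edgeR adjusted p = 0.0321) and by 0.31 ± 0.08 with shMed4 #4 (adjusted p = 0.00122). The shMed4 #1 value was 0.13 to 0.19 and did not pass without NTC replicate 2, NTC replicate 3 or shMed4 #1 replicate 1 (adjusted p 0.101 to 0.223).

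Both mitochondrial rRNAs rose with each hairpin. mt-Rnr2, the large subunit rRNA, had 2617, 2188 and 2375 CPM with shMed4 #1 and 2645, 2635 and 2776 CPM with shMed4 #4, against 2043, 1879 and 1845 CPM in NTC. mt-Rnr1, the small subunit rRNA, had 531, 417 and 449.7 CPM with shMed4 #1 and 539.7, 502 and 529 CPM with shMed4 #4, against 401, 371 and 370.4 CPM in NTC. Neither overlapped between hairpin and NTC libraries, and the log2 fold changes were 0.32 for mt-Rnr2 and 0.29 for mt-Rnr1 with shMed4 #1, and 0.48 and 0.46 with shMed4 #4 (edgeR adjusted p at most 0.000145). As a share of mitochondrial reads the rRNAs took 4.98 ± 0.30% with shMed4 #1 and 5.31 ± 0.23% with shMed4 #4, against 5.22 ± 0.36% in NTC (SD, n = 3 each). These shares overlapped, with exact permutation p = 0.6 for each hairpin and 0.857 for both together, so a change in the ratio of rRNA to other mitochondrial reads was not detectable with these libraries.

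**Figure D3:**
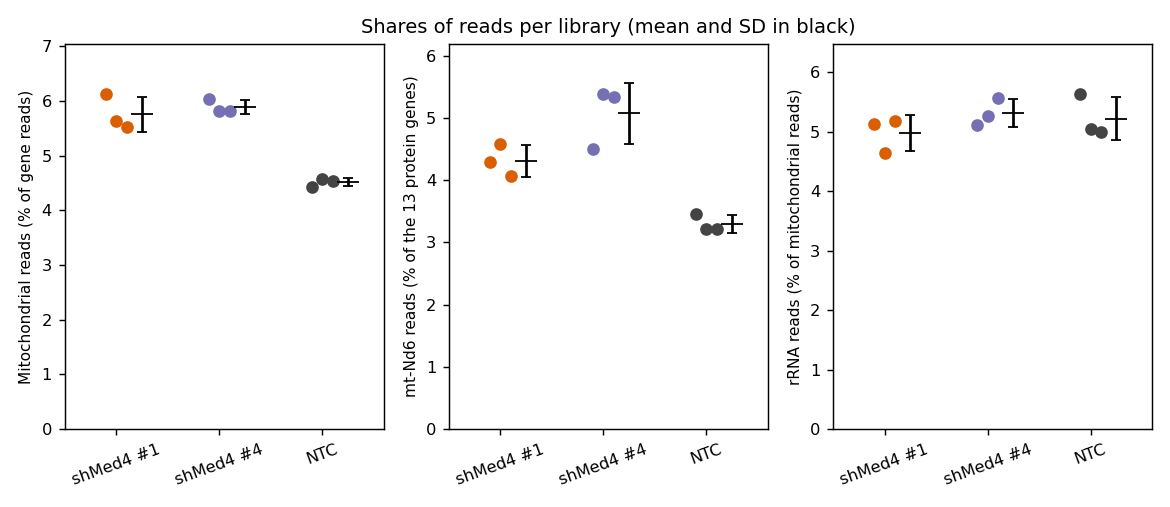
Shares of reads in each library (points) with mean and SD (black), for shMed4 #1, shMed4 #4 and NTC. Mitochondrial reads were 5.51 to 6.12% of gene reads in hairpin libraries and 4.43 to 4.58% in NTC, mt-Nd6 was 4.07 to 5.38% of the reads of protein genes in hairpin libraries and 3.21 to 3.45% in NTC, and the rRNA shares overlapped.

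Among the tRNA genes, 9 of 22 held reads, and these were not spread evenly over the genome. On the minus strand 7 of 8 tRNA genes had reads, and on the plus strand 2 of 14. The 8 genes with at least 100 bases free of annotated genes on their own strand on a side, or last on their strand, were mt-Tq, mt-Tw, mt-Ta, mt-Ty, mt-Ts1, mt-Te, mt-Tt and mt-Tp. All 8 had reads, 123 to 4347 over the 9 libraries, and the other 14 had 1 read between them. The reference was taken as a line here, and mt-Tf, at its start, was counted without space before it and had 0 reads. With the ends joined, mt-Tf would border the same space as mt-Tt on the plus strand, so the split depends on this choice. When both strands are considered, at most 5 bases separate the 8 genes with space from an annotated neighbour. No gene is annotated after mt-Tp, so that side was not measured. Elsewhere in the genome, 107 of 115 genes that lie inside the exons of an opposite-strand coding gene had reads, and the median ratio of their reads per kb to the partner's over the 115 was 1.54, so reads of a gene and of the opposite strand cannot be told apart, and mature tRNA cannot be told from longer transcripts that run across it.

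mt-Te had the highest fold change of all tested members with each hairpin. It had 70.3, 65.3 and 64.5 CPM with shMed4 #1 and 80.6, 91.8 and 84.1 CPM with shMed4 #4, against 22.7, 26.0 and 25.0 CPM in NTC. The lowest hairpin library stood above the highest NTC library by more than the whole range within any group. The gene rose 2.71-fold with shMed4 #1 (log2 1.44 ± 0.08, edgeR adjusted p = 9.11e-18) and 3.48-fold with shMed4 #4 (log2 1.80 ± 0.08, adjusted p = 1.53e-21). It lies between mt-Nd6, which it adjoins on the minus strand, and mt-Cytb on the plus strand, 5 bases away.

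Between mt-Nd2 and mt-Co1 lies a cluster of 5 tRNA genes, of which mt-Tw, mt-Ta and mt-Ty had enough reads to test. mt-Ty, the tRNA for tyrosine, had 15.5, 11.6 and 13.6 CPM with shMed4 #1 and 16.2, 17.0 and 13.9 CPM with shMed4 #4, against 7.32, 8.89 and 7.71 CPM in NTC. mt-Ta, the tRNA for alanine, had 5.83, 2.90 and 4.73 CPM with shMed4 #1 and 5.48, 6.69 and 7.95 CPM with shMed4 #4, against 2.73, 2.71 and 2.33 CPM in NTC. Hairpin and NTC libraries did not overlap for either, although 1 shMed4 #1 library of mt-Ta came close to NTC. mt-Ty rose by 0.77 ± 0.14 with shMed4 #1 and by 0.98 ± 0.14 with shMed4 #4 (edgeR adjusted p = 4.23e-05 and 2.52e-07). mt-Ta rose by 0.79 ± 0.26 with shMed4 #1 and by 1.37 ± 0.24 with shMed4 #4 (edgeR adjusted p = 0.0119 and 6.08e-06). Without shMed4 #1 replicate 1 the shMed4 #1 value of mt-Ta was 0.57 and did not pass (adjusted p = 0.104). mt-Tw, the tRNA for tryptophan, passed with shMed4 #4 (1.14 ± 0.31, adjusted p = 0.00227) and not with shMed4 #1 (0.61 ± 0.34, adjusted p = 0.147), and without shMed4 #4 replicate 1 the shMed4 #4 value was 0.76 and did not pass (adjusted p = 0.0665).

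Of the remaining tRNA genes, mt-Ts1, a tRNA for serine, rose by 0.54 ± 0.11 with shMed4 #1 (edgeR adjusted p = 8.08e-05) and by 0.33 ± 0.11 with shMed4 #4 (adjusted p = 0.0102), although 1 shMed4 #1 library at 44.1 CPM lay below the highest NTC library at 44.9 CPM. mt-Tp, the tRNA for proline, had 39.9, 29.9 and 29.9 CPM with shMed4 #1 and 24.1, 28.7 and 25.4 CPM with shMed4 #4, against 25.9, 25.3 and 24.1 CPM in NTC, and passed with shMed4 #1 (0.40 ± 0.10, adjusted p = 0.00136) and not with shMed4 #4 (0.06 ± 0.11, adjusted p = 0.683). With the trend on GC content and length removed, the shMed4 #4 value was 0.56 and passed (adjusted p = 3.73e-06). Its averaged value of 0.23 passed at adjusted p = 0.0308 and did not pass when any of NTC replicates 1, 2 and 3, shMed4 #1 replicate 1 or shMed4 #4 replicate 2 was left out (0.16 to 0.25, adjusted p 0.0502 to 0.111). mt-Tt, the tRNA for threonine, passed with neither hairpin (0.33 ± 0.38 with shMed4 #1 and 0.23 ± 0.39 with shMed4 #4).

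mt-Tq alone was called lower. It had 33.3, 27.0 and 24.7 CPM with shMed4 #1 and 29.9, 37.9 and 36.1 CPM with shMed4 #4, against 37.5, 37.8 and 32.7 CPM in NTC. In shMed4 #1, 1 library, and in shMed4 #4, 2 libraries lay within the NTC range or above it. The log2 fold change was -0.35 ± 0.10 with shMed4 #1 (edgeR adjusted p = 0.00493) and -0.05 ± 0.10 with shMed4 #4 (adjusted p = 0.662), and without shMed4 #1 replicate 3 the shMed4 #1 value was -0.25 and did not pass (adjusted p = 0.0656). With the trend on GC content and length removed it was -0.06 and did not pass (adjusted p = 0.615), and the shMed4 #4 value was 0.47 and passed as higher (adjusted p = 7.39e-06). The averaged value of -0.20 (adjusted p = 0.0452) turned to 0.20 under the same correction, and did not pass without NTC replicate 1 or 2, shMed4 #1 replicate 2 or 3, or shMed4 #4 replicate 1 (-0.18 to -0.15, adjusted p 0.0797 to 0.182).

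By annotated strand, 12 of 15 tested plus-strand genes rose and 0 fell in the average of both hairpins, where 26.8% of all genes rose and 26.5% fell, with a median log2 fold change of 0.40. On the minus strand 6 of 7 tested genes rose and 1 fell, with a median of 0.87. The strands hold different kinds of genes, since the minus-strand set is mt-Nd6 and 6 tRNA genes, and the difference of these medians was not tested. The single protein gene annotated on the minus strand can be set beside the other protein genes. mt-Nd6 made up 4.29, 4.58 and 4.07% of the reads of the 13 protein genes with shMed4 #1 and 4.50, 5.38 and 5.34% with shMed4 #4, against 3.45, 3.22 and 3.21% in NTC. All hairpin values lay above all NTC values. The exact permutation test gave p = 0.1 for each hairpin and 0.0238 for both together (0.0952 adjusted over 4 comparisons). The unadjusted p-values are the smallest possible for these numbers of libraries. Per base, mt-Nd6 stood at 75.5% of its neighbours mt-Nd5 and mt-Cytb with shMed4 #1 and at 91.1% with shMed4 #4, against 59.7% in NTC. This comparison takes strand from the annotation, and the strand of the RNA was not read. Reads counted for mt-Nd6 may therefore come from RNA of either strand, and the values cannot show which strand changed.

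To ask which members moved more or less than the mitochondrial genes as a whole, a second edgeR fit scaled each library to its sum of mitochondrial reads. In the average of both hairpins 6 genes rose and 5 fell relative to that sum. Since the sum itself was higher with the hairpins, 77% of all tested genes passed in this fit, 6.19% of them higher and 70.8% lower, and the median of all genes was -0.43. With shMed4 #1, 6 genes rose and 4 fell, where 70.1% of all genes passed (5.85% higher and 64.3% lower). With shMed4 #4, 7 rose and 6 fell, where 75% passed (6.7% higher and 68.3% lower). mt-Nd2, mt-Nd5, mt-Nd6, mt-Ty and mt-Te rose relative to the sum with each hairpin. mt-Co1, mt-Co2, mt-Co3 and mt-Tq fell relative to it with each hairpin.

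Relative to the mitochondrial sum, the averaged log2 fold change was 1.21 ± 0.09 for mt-Te (edgeR adjusted p = 2.5e-28), 0.51 ± 0.06 for mt-Nd6 (adjusted p = 1.52e-14), 0.42 ± 0.05 for mt-Nd5 (adjusted p = 7.63e-12) and 0.24 ± 0.05 for mt-Nd2 (adjusted p = 3.77e-05). It was -0.32 ± 0.05 for mt-Co1 (adjusted p = 2.61e-08), -0.39 ± 0.08 for mt-Co2 and -0.37 ± 0.09 for mt-Co3. Complex I held 3 genes above the sum and 0 below, and complex IV 0 above and 3 below. Of all tested genes in this fit, 6.19% passed as higher and 70.8% as lower. More than 99% of the windows of mt-Co2 and mt-Co3 are shared with nuclear transcripts, so the placing of their reads is uncertain. The values of mt-Co1, mt-Co2 and mt-Co3 lay near the median of all genes in this fit, -0.43. mt-Nd1, mt-Nd3, mt-Nd4, mt-Nd4l, mt-Atp6 and both rRNAs did not pass in this average. mt-Co1 took 24.3 to 26.2% of mitochondrial reads with shMed4 #1 and 24.2 to 24.6% with shMed4 #4, against 30.9 to 31.1% in NTC, and is part of the sum it was compared with. mt-Cytb passed as lower (-0.11, adjusted p = 0.0483) and did not pass without any of NTC replicates 2 and 3, shMed4 #1 replicates 2 and 3 or shMed4 #4 replicates 2 and 3 (adjusted p 0.0836 to 0.151), and the shMed4 #1 call of mt-Ty (0.39) was lost without NTC replicate 1 or 3 or shMed4 #1 replicate 1 or 3 (0.34 to 0.36, adjusted p 0.0568 to 0.0757). Among the calls made with a single hairpin, mt-Nd4 with shMed4 #1 (0.13, edgeR adjusted p = 0.0498) was lost without NTC replicate 1 or 3 or replicate 2 or 3 of either hairpin, mt-Tw with shMed4 #4 (0.69, adjusted p = 0.0421) without any NTC replicate or shMed4 #4 replicate 1, and mt-Cytb with shMed4 #4 (-0.16, adjusted p = 0.0142) without replicate 3 of NTC or shMed4 #4.

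**Figure D4:**
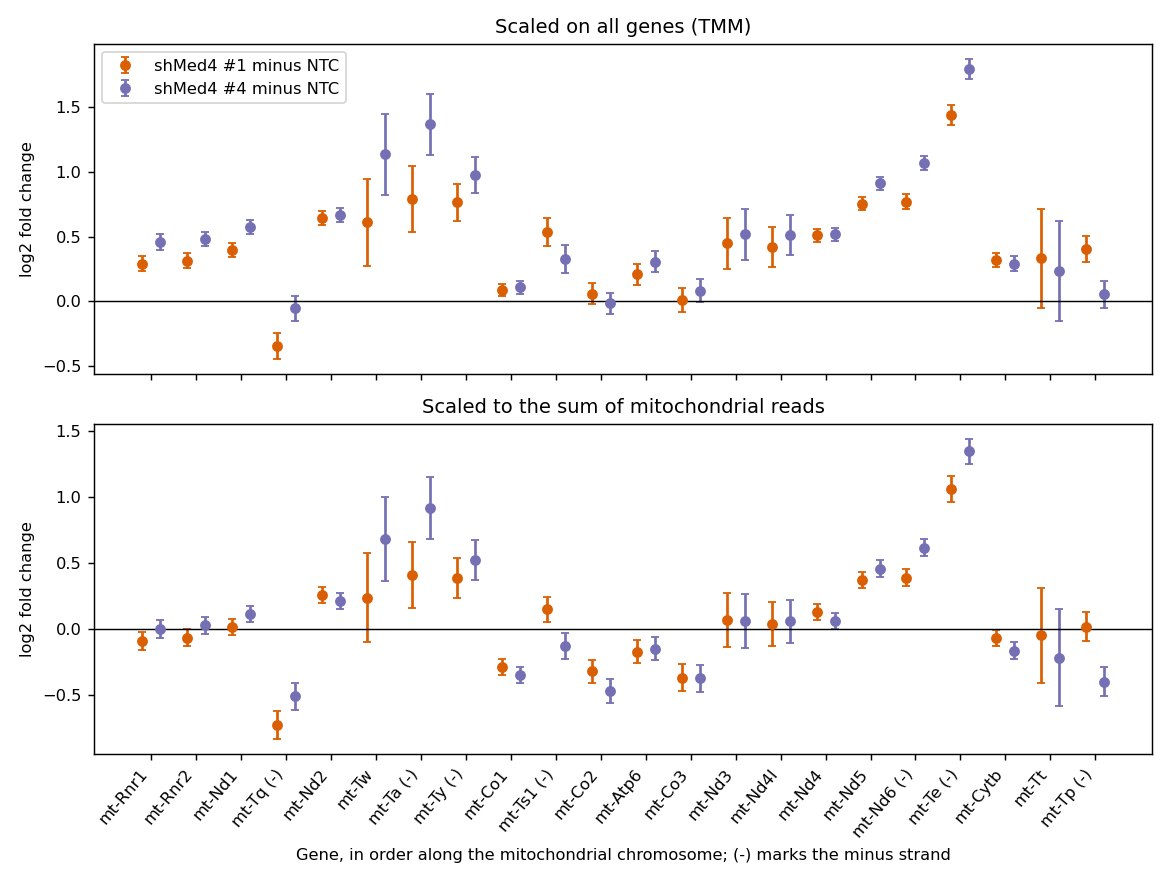
Log2 fold change with standard error of the 22 tested genes in genome order, for shMed4 #1 minus NTC and shMed4 #4 minus NTC, scaled on all genes (top) and to the sum of mitochondrial reads (bottom). mt-Te stands highest in the top panel, at 1.44 for shMed4 #1 and 1.80 for shMed4 #4, and mt-Co1, mt-Co2 and mt-Co3 lie near 0 in the top panel and below 0 in the bottom panel.

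shMed4 #4 gave higher values than shMed4 #1 for 8 members and a lower value for 1, where 28% of all tested genes passed (14.2% higher and 13.9% lower). The 8 were mt-Rnr1, mt-Rnr2, mt-Nd1, mt-Nd5, mt-Nd6, mt-Tq, mt-Ta and mt-Te, and the lower was mt-Tp. mt-Nd6 was higher by 0.30 ± 0.06 (edgeR adjusted p = 7.74e-05) and mt-Te by 0.36 ± 0.07 (adjusted p = 5.04e-05). Med4 itself averaged 7.19 CPM with shMed4 #4 and 4.52 CPM with shMed4 #1. These calls of mt-Nd6 and mt-Te held when any 1 library was left out, and each of the other 7 was lost without at least 1 library. The count was 4 without shMed4 #1 replicate 2, 4 without shMed4 #1 replicate 3, 6 without shMed4 #4 replicate 1 and 5 without shMed4 #4 replicate 3. Scaled to the mitochondrial sum, mt-Nd6 and mt-Te were higher and mt-Ts1 and mt-Tp lower with shMed4 #4, where 23.6% of all genes passed (6.05% higher and 17.6% lower), and the 4 calls became 1 without shMed4 #4 replicate 2 and 6 without shMed4 #4 replicate 1.

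Lists of nuclear genes that serve the mitochondrial genome held genes that rose and genes that fell. Of 10 genes for mitochondrial transcription, 1 rose and 2 fell in the average of both hairpins, where 26.8% of all genes rose and 26.5% fell. Polrmt averaged 27.3 ± 2.1 CPM with shMed4 #1 and 29.3 ± 2.4 CPM with shMed4 #4, against 32.1 ± 3.1 CPM in NTC, and Tfam, which binds and packages mitochondrial DNA and starts its transcription, averaged 50.5 ± 2.9 CPM with shMed4 #1 and 58.1 ± 2.1 CPM with shMed4 #4, against 58.7 ± 2.6 CPM in NTC (SD, n = 3 each). Their averaged log2 fold changes were -0.18 (edgeR adjusted p = 0.0531) and -0.12 (adjusted p = 0.0974). Of the mitochondrial termination factor family, Mterf1a fell by 0.76 (adjusted p = 1.62e-05), Mterf1b fell by 0.61 (adjusted p = 0.0176) and Mterf2 rose by 0.51 (adjusted p = 0.00242). Mterf1a and Mterf1b are close paralogs, and reads could be divided between them uncertainly.

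Among 17 genes for replication and maintenance of mitochondrial DNA, 5 rose and 2 fell, where 26.8% of all genes rose and 26.5% fell. Ssbp1, the single-stranded DNA binding protein, rose by 0.27, Slc25a33, a pyrimidine nucleotide carrier, by 0.44 and the nuclease Exog by 0.35, whereas Tk2, the mitochondrial thymidine kinase, fell by 0.81 (edgeR adjusted p = 3.7e-12). Among 23 genes for processing and stability of mitochondrial RNA, 7 rose and 6 fell, against the same shares of all genes. Rexo2, a nuclease that degrades short RNA, rose by 0.42, and Trnt1, which adds the CCA end to tRNAs, by 0.25. Hsd17b10, a subunit of mitochondrial RNase P, fell by 0.35. Lrpprc, which binds and stabilises mitochondrial mRNAs, averaged 145 CPM with shMed4 #1 and 187 CPM with shMed4 #4, against 143 CPM in NTC, with log2 fold changes of 0.02 for shMed4 #1 (adjusted p = 0.802) and 0.38 for shMed4 #4 (adjusted p = 1.02e-07), and its partner Slirp did not pass in the average (-0.10, adjusted p = 0.122).

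Against 26.8% of all genes that rose and 26.5% that fell, the other lists of nuclear genes divided as follows. Of 14 translation factors 2 rose and 5 fell, and of 8 tested regulators of mitochondrial biogenesis 1 rose (Gabpa, 0.20) and 2 fell (Gabpb2, -0.29, and Esrra, -0.33). Genes of mitochondrial mass and protein import rose in 11 of 18 cases and fell in 2, with a median of 0.18. Slc25a5, an ADP and ATP carrier, rose by 0.47 and Immt, an organiser of cristae, by 0.44, whereas citrate synthase (Cs) fell by 0.31.

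Nuclear subunits of the respiratory complexes can be set beside their mitochondrial partners and beside the 26.8% of all genes that rose and 26.5% that fell. Of 36 nuclear subunits of complex I, 8 rose and 4 fell (median 0.07), for example Ndufb11 at 0.59 and Ndufb5 at -0.35, beside 7 of 7 mitochondrial subunits that rose. Of 11 nuclear subunits of complex IV, 7 rose and 2 fell (median 0.17), for example Ndufa4 at 0.45 and Cox7c at -0.38, beside 1 of 3 mitochondrial subunits. Complex II, which has no mitochondrially encoded subunit, had 1 of 4 higher, Sdhd at 0.33. For complex III 3 of 9 rose and 1 fell. For complex V, whose list also holds its inhibitor Atpif1, 5 of 16 rose and 5 fell. Whether nuclear and mitochondrial subunits differ as sets was not tested.

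**Figure D5:**
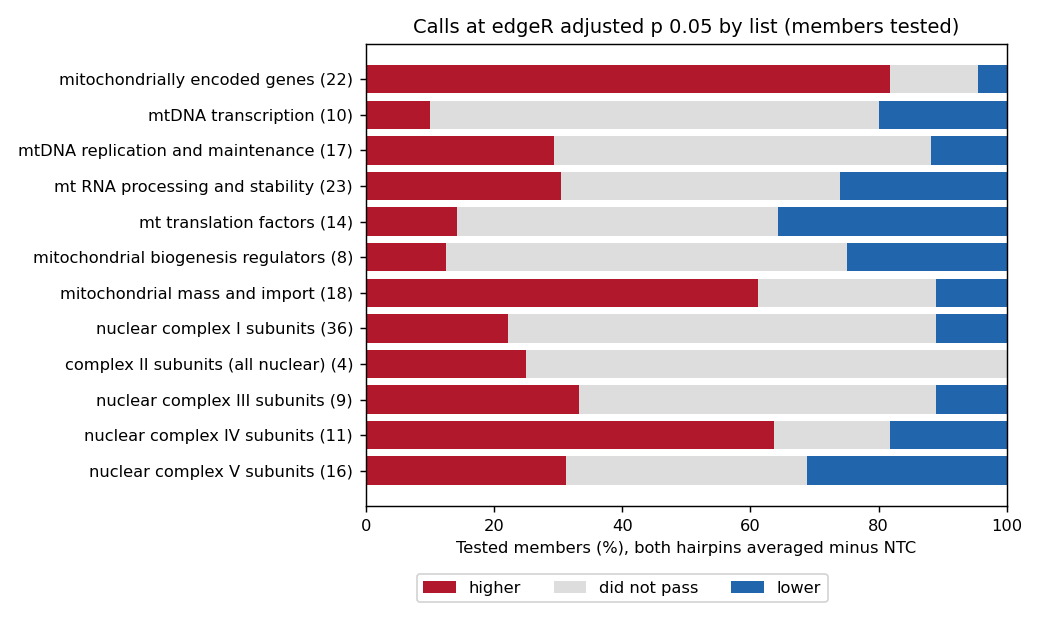
Percentage of tested members that were higher (red), did not pass (grey) or were lower (blue) in the average of both hairpins minus NTC, by list, with the number tested in brackets. Of the mitochondrially encoded genes 18 of 22 were higher, and of the lists of nuclear genes mitochondrial mass and import had 11 of 18 and nuclear complex IV subunits 7 of 11 higher.

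RNAs that stay in the nucleus were also counted. All 5 tested of a list of 9 nuclear-retained or unpolyadenylated RNAs fell in the average, where 26.5% of all genes did, for example Neat1, which fell by 1.84, and Malat1, which fell by 1.63. With shMed4 #1 3 of the 5 fell and 2 did not pass, where 19.8% of all genes fell, and with shMed4 #4 all 5 fell, where 27.3% did. The hairpins differed most in Xist, which averaged 50.7 CPM with shMed4 #1 and 3.47 CPM with shMed4 #4, against 43.4 CPM in NTC. The list summed to 621 to 790.3 CPM with shMed4 #1 and 357 to 437 CPM with shMed4 #4, against 1560 to 1806 CPM in NTC. These sums did not overlap between groups, and their part in the mitochondrial share was not tested.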

How the data were processed

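RNA of 9 libraries of D2A1-d cells was extracted with a kit that includes DNase and sequenced on a BGISEQ-500, per the labels' protocols. The submitters' processing notes name STAR, HTSeq and mm10 (GRCm38). The sources used here do not give versions, read length, whether poly(A) RNA was selected or whether counting used strand. The deposited values are whole-number counts per gene, not normalised, and 5 summary lines per file that name no gene entered neither the library totals nor any test. Reads with no gene made up 49.9 to 50.4% of the records with shMed4 #1 and 49.5 to 50.1% with shMed4 #4, against 51.1 to 51.6% in NTC. Reads ambiguous between genes made up 0.863 to 0.951%. Libraries held 7572114 to 8582235 gene reads, and the precision this depth gives covers counting error only, since molecular identifiers are not mentioned.

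Identifiers were matched to symbols and coordinates with GENCODE M21, 55154 of 55335. The count model was edgeR 4.0.16 (R 4.3.3): filterByExpr with a minimum count of 10 (14335 genes kept), TMM factors of 0.969 to 1.02, 1 quasi-likelihood model with 3 groups, and Benjamini-Hochberg adjustment over all tested genes at 0.05. The standard error is the size of the log2 fold change divided by the square root of F. A second fit used the sum of mitochondrial reads as library size. Shares were compared with exact permutation tests (scipy 1.17.1). Libraries of a group differed by more than sampling noise in all 9 pairs (chi-square over degrees of freedom, 1.53 to 2.95). Nuclear copies were sought in annotated transcripts only, with blastn 2.17.0 and exact windows of 50 and 100 bases, and a genome sequence was not used here. The fit was checked on simulated counts.

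Named genes were all members, Med4, from each nuclear list up to 4 genes with the smallest averaged adjusted p, and Polrmt, Tfam, Lrpprc and Slirp. The members and lists were chosen with earlier results of these data known. Alternatives included DESeq2 1.42.0, limma 3.58.1 (voom), other scalings and filters, removal of the GC and length trend, the replicate number as a block and leaving out each library.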

Additional observations from a re-analysis of the deposited data

How the results depend on the processing

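Over 22 alternatives the number of the 22 tested mitochondrial genes called was 13 to 18 with shMed4 #1, 14 to 21 with shMed4 #4 and 14 to 21 for their average. mt-Te (log2 1.57 to 2.02), mt-Nd6 (0.87 to 1.10) and mt-Nd5 (0.78 to 0.91) passed under all of them in the average. Relative to the mitochondrial sum, 12 alternatives gave 8 to 11 calls with shMed4 #1, 11 to 14 with shMed4 #4 and 10 to 14 for the average. Reads with no gene and reads ambiguous between genes were added to the total, and alignments to several places were not. This moved the log2 ratio of the mitochondrial share to 0.41 with shMed4 #1, 0.46 with shMed4 #4 and 0.44 for both, against 0.35, 0.38 and 0.37. For shMed4 #4 minus shMed4 #1 the 9 calls became 5 with library sizes alone, 3 at an adjusted p of 0.01, 4 to 9 when 1 library was left out and 13 with the trend on GC content and length removed, and the 4 relative to the mitochondrial sum became 1 to 6. Removing the trend with GC content and length turned mt-Tq to 0.47 with shMed4 #4 and 0.20 in the average, and mt-Co2 to 0.21 with shMed4 #4. With the replicate block added to that correction they were 0.47, 0.21 and 0.20. The cause was not tested.

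Replicate numbers did not pair the libraries: deviations of libraries with the same number correlated at -0.06 to 0.04 over 9 pairs, and those with different numbers at -0.07 to 0.06 over 18. The replicate block gave 16, 17, 18 and 9 calls for shMed4 #1, shMed4 #4, their average and their difference, against 16, 16, 19 and 9, and left the log2 ratios of the shares at 0.35, 0.38 and 0.37. Too few reads were counted to test mt-Atp8, mt-Tn and 13 tRNA genes, and 3 libraries per group keep the exact tests of each hairpin from going below 0.1.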
